A study of Arabidopsis thaliana with 4 samples.

Results

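Heat shock transcription factors switch on the genes that protect proteins during heat, and 7 of them are described here through 1 measurement, the co-translational RNA decay index of their messenger RNA. They are HSFA1A (AT4G17750, named HSF1 in the name table), HSFA1B (AT5G16820, HSF3), HSFA1D (AT1G32330), HSFA1E (AT3G02990), HSFA2 (AT2G26150), HSFB2A (AT5G62020) and HSFB2B (AT4G11660). They were taken by locus from the deposited index tables of Arabidopsis thaliana, which together list 23498 loci, and are 7 of the 21 heat shock factors of the species listed here. The series holds 2 libraries whose genotype label is a loss-of-function mutant of ABH1, in the Col-0 ecotype (the abh1 libraries, with the numbers 1 and 8 in their titles) and 2 libraries titled Col-0_CHX whose labels give wild type, also in Col-0. ABH1 is the larger of the proteins that bind the cap of messenger RNA in the nucleus. All 4 are labelled as immature inflorescence from plants of about 4 weeks, grown in 16 h light and 8 h dark and not otherwise treated. The labels do not spell out CHX or give the mutant allele, and they do not say if replicates were taken from separate plants. The genotype differs along with the CHX in the title, so the effects of these cannot be told apart, and a p-value here measures how libraries scatter, which may be a technical matter.

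In plants as in animals, heat shock factors bind promoters of chaperone genes as trimers. HSFA1A, HSFA1B and HSFA1D are master activators of the heat response. HSFA1 factors are held in check by the chaperones HSP70 and HSP90 until proteins start to unfold. HSFA2 is itself switched on by the HSFA1 factors and prolongs the response, while HSFB2A and HSFB2B belong to class B, whose members act as repressors and lack the activation domain of class A. In co-translational decay a messenger RNA that has lost its cap is degraded from its front end, in plants by the exonuclease XRN4, while ribosomes are still moving along it. Sequencing the front ends of uncapped RNA (GMUCT) records such intermediates. The index is a ratio without a unit. The sources used here give neither its formula nor the reads behind it, so what a value above or below 1 stands for is not stated and the depth is unknown.

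The abh1 libraries listed 22495 and 22492 loci, against 18321 and 18215 in the Col-0_CHX libraries, and 17049 loci had an index in all 4. Over these 17049 the median index was 1.15 and 1.14 in abh1 libraries, against 1.37 and 1.29 in Col-0_CHX, and the median log2 difference, abh1 minus Col-0_CHX, was -0.23. The targeted gene ABH1 had an index of 1.01 and 1.19 in abh1 libraries, against 1.86 and 1.62 in Col-0_CHX. An index is not an amount of RNA, so it does not check the genotype. Of 16 flower marker genes, 16 were listed in both abh1 libraries, 0 in both Col-0_CHX libraries and 13 in neither Col-0_CHX library. Most defining markers of the labelled tissue were thus absent from the Col-0_CHX files. Of 7 root hair markers, 1 was listed in abh1 and 0 in Col-0_CHX. Such a difference in tissue would run along with the genotype and the CHX in the title. Its part in the results below cannot be told apart from theirs and was not tested.

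HSFA1A had the lowest index of the 7 factors in the first abh1 library, the third lowest in the second, and the highest of the 6 listed factors in both Col-0_CHX libraries. Its index was 0.951 and 1.00 in abh1 libraries, against 2.73 and 2.85 in the Col-0_CHX libraries. The groups did not overlap, and the libraries of each group lay close together, 0.079 apart on the log2 scale in abh1 and 0.062 apart in Col-0_CHX. On the log2 scale HSFA1A averaged -0.033 ± 0.056 over abh1 and 1.48 ± 0.044 over Col-0_CHX (SD, n = 2 each), a difference of -1.51 ± 0.14 (SE), which is an index 2.85-fold higher in Col-0_CHX. Of the 17049 loci, 361 had a more negative difference. Within its libraries HSFA1A stood at the 20.4th and 28.6th percentile of listed loci in abh1, and at the 93.5th and 95.6th percentile in Col-0_CHX. The index as a whole spread more widely in Col-0_CHX. Over the 17049 loci the SD of log2 was 0.67 and 0.65 there, against 0.40 and 0.40 in abh1. With quantile normalization, which gives all libraries the same spread, the difference of HSFA1A was -1.11.

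Over all 17049 loci HSFA1A did not pass limma's moderated test, with a Benjamini-Hochberg adjusted p of 0.167. No locus did (0 called, 0% of 17049), while 2938 loci were lower and 484 higher in abh1 at an unadjusted p under 0.05. Many values in these tables recur exactly at many loci. Ratios of small counts do so as well, but the counts behind the index are not given, so this was not tested. A value held by over 10 loci of the library stood at 27.15% and 29.28% of loci in abh1, against 43.56% and 42.74% in Col-0_CHX. Among the 6572 loci with no repeated value, meaning one that over 10 loci of the same library have, limma's test called 567 loci (8.63%), 528 lower in abh1 (8.03%) and 39 higher (0.593%). HSFA1A was among the loci that fell there, with an adjusted p of 0.0383, and 36 of the 6572 loci had a more negative difference. That call was lost without the first or the second abh1 library (limma adjusted p = 0.329 and 0.333). It was lost as well with each library centred on its median (difference -1.30, adjusted p = 0.0665), with quantile normalization (adjusted p = 0.0556) and with a limit of 20 loci for repeated values (adjusted p = 0.0607).

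**Figure D1:**
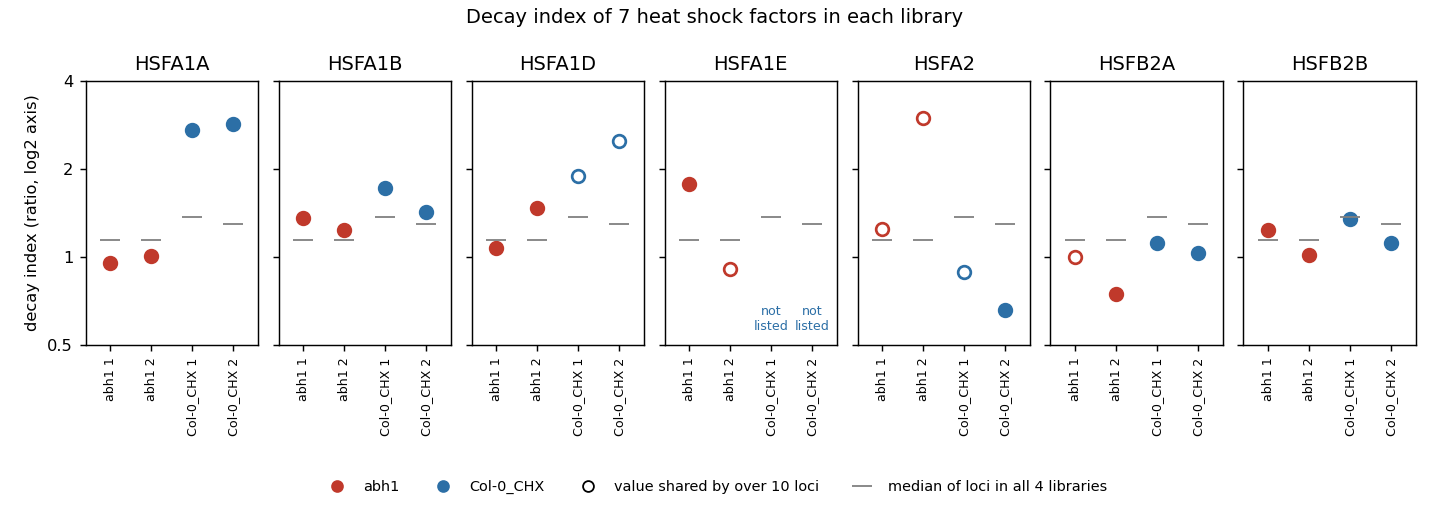
Decay index (log2 axis, ratio without unit) of the 7 heat shock factors in the 2 abh1 libraries (red) and the 2 Col-0_CHX libraries (blue). Each point is 1 library, open points are values shared by over 10 loci of that library, and grey bars give the library's median over the 17049 loci in all 4 libraries. HSFA1A lies at 0.951 and 1.00 in abh1 and at 2.73 and 2.85 in Col-0_CHX, HSFA2 is the 1 factor with both abh1 values above both Col-0_CHX values, and HSFA1E is not listed in Col-0_CHX.

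HSFA1B and HSFA1D share the master role with HSFA1A, and their values lay in the same direction with smaller differences. HSFA1B had an index of 1.36 and 1.24 in abh1 libraries, against 1.73 and 1.43 in Col-0_CHX. The groups did not overlap, but the difference of -0.27 ± 0.17 (SE) on the log2 scale was close to that of the median locus and did not pass (limma adjusted p = 0.443). With every library centred at its own median the difference was -0.055 and the groups overlapped. With quantile normalization it was 0.096, on the other side of 0, and without the first Col-0_CHX library -0.14.

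HSFA1D had an index of 1.07 and 1.47 in abh1 libraries, against 1.9 and 2.5 in Col-0_CHX. Again both abh1 values lay below both Col-0_CHX values, also after centring. Its difference was -0.80 ± 0.26 (SE) on the log2 scale (-0.34 with quantile normalization), and 13.0% of loci had a more negative one. It did not pass limma's test (adjusted p = 0.239). The Col-0_CHX values of 1.9 and 2.5 were each shared with other loci of their library (36 and 206 loci had them), so HSFA1D is not among the 6572 loci without repeated values.

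HSFA1E, the remaining HSFA1 factor, had an index of 1.77 and 0.906 in abh1 and was listed in neither Col-0_CHX library. It was therefore not tested. The abh1 values differed by a factor that put HSFA1E at the 93.6th percentile of 1 library and at the 16.8th of the other. Both abh1 libraries listed 21858 loci, and 16.2% of these were listed in neither Col-0_CHX library. Why a locus is unlisted was not tested. Fewer cells making its RNA, less of it per cell, and too few reads of uncapped ends cannot be told apart in bulk tissue. The Col-0_CHX libraries also listed fewer loci as a whole (18321 and 18215) than the abh1 libraries (22495 and 22492).

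Within each library HSFA1A was also set against the other HSFA1 factors. In the abh1 libraries its index was 0.700 and 0.811 times that of HSFA1B, and in the Col-0_CHX libraries 1.58 and 2.00 times. Set against HSFA1D it was 0.888 and 0.683 times in abh1, and 1.44 and 1.14 times in Col-0_CHX. HSFA1A thus lay below HSFA1B and HSFA1D in each abh1 library and above both in each Col-0_CHX library. Against HSFA1E, listed in abh1 only, it was 0.537 times in the first abh1 library and 1.11 times in the second, so it lay below HSFA1E in 1 and above it in the other. The difference between these genes' differences was not tested.

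HSFA2, the heat-induced factor that prolongs the response, was the member with values in the opposite direction. Its index was 1.25 and 3 in abh1 libraries, against 0.889 and 0.656 in Col-0_CHX. The groups did not overlap, yet the abh1 libraries were 1.26 apart on the log2 scale, a wider gap than at 97.7% of the 17049 loci. HSFA2 averaged 0.95 ± 0.89 over abh1 and -0.39 ± 0.31 over Col-0_CHX as log2 values (SD, n = 2 each). The difference of 1.34 ± 0.51 (SE) was higher than at 98.8% of loci and did not pass limma's test (adjusted p = 0.275). Without the second abh1 library it was 0.71.

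The HSFA2 values were repeated ones in 3 of the 4 libraries. In the first and second abh1 library 186 and 69 loci had the same value as HSFA2, and in the Col-0_CHX libraries 27 and 6 did. RefSeq lists 4 transcripts for HSFA2, which is known for splice forms that appear under heat, while every index table gives only the first gene model.

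The class B repressors lay near the median locus in their differences. HSFB2A had an index of 1 and 0.745 in abh1 libraries, against 1.12 and 1.03 in Col-0_CHX. The groups did not overlap, and the log2 difference was -0.31 ± 0.21 (SE), with a limma adjusted p of 0.465. The abh1 value of 1 was shared by 560 loci. After centring the difference was -0.094 and the groups overlapped, and without the second abh1 library it was -0.10.

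HSFB2B had an index of 1.24 and 1.01 in abh1 libraries, against 1.35 and 1.11 in Col-0_CHX, and its groups overlapped. Its log2 difference of -0.13 ± 0.20 (SE) did not pass (limma adjusted p = 0.746) and changed side with the processing. It was 0.092 after centring, 0.066 with quantile normalization, 0.015 without the second abh1 library and 0.0097 without the first Col-0_CHX library. HSFB2A and HSFB2B stood at or below the middle of the Col-0_CHX libraries, between the 23.8th and the 49.2th percentile.

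**Figure D2:**
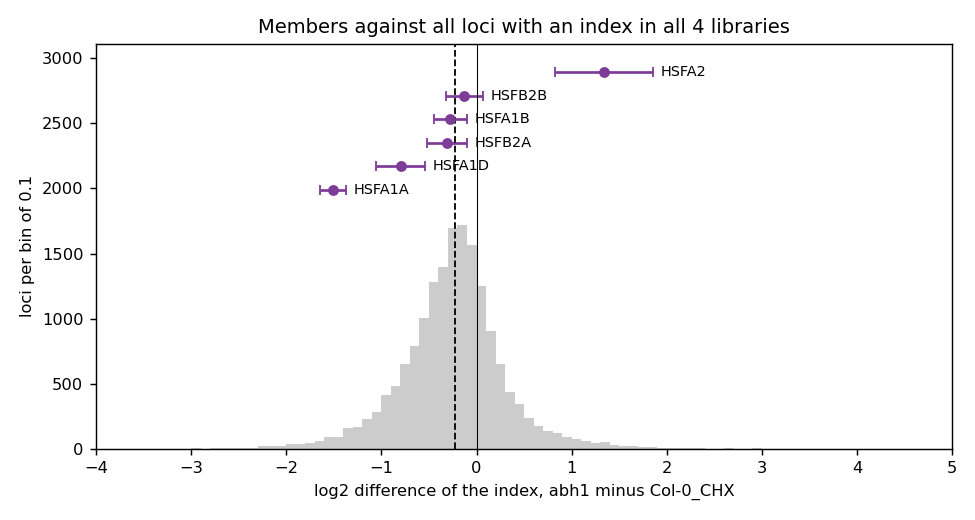
Histogram of the log2 difference of the index, abh1 minus Col-0_CHX, over 17049 loci, with the 6 factors listed in all 4 libraries as points with their standard errors from limma (their height has no meaning). The dashed line is the median of all loci, -0.23. HSFA1A at -1.51 and HSFA2 at 1.34 lie in opposite tails, and HSFA1B, HSFB2A and HSFB2B lie near the dashed line.

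Of the 6 factors in all 4 libraries, 5 had a lower mean index in abh1 and 1 a higher one, with a median log2 difference of -0.29, while 72.2% of all 17049 loci were lower. In 4 of the 6 both abh1 values lay below both Col-0_CHX values, which held for 45.2% of all loci, and in 1 (HSFA2) they lay above, as at 10.7% of all loci. With each library centred on its median these counts were 2 (HSFA1A and HSFA1D) and 1 (HSFA2), against 26.3% and 24.9% of all loci. At an unadjusted p under 0.05 in limma, HSFA1A and HSFA1D were lower, a side that held 17.2% of all loci, and 0 were higher (2.84% of all loci). After centring these were HSFA1A on the lower and HSFA2 on the higher side, and the counts over all loci were 1526 lower and 1087 higher.

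The order of the factors differed between the groups. In abh1 it ran, by geometric mean index, HSFA2 (1.94), HSFA1B (1.30), HSFA1E (1.27), HSFA1D (1.25), HSFB2B (1.12), HSFA1A (0.977) and HSFB2A (0.863). Of these neighbours only HSFB2B and HSFA1A did not overlap. In Col-0_CHX the order was HSFA1A (2.79), HSFA1D (2.18), HSFA1B (1.57), HSFB2B (1.22), HSFB2A (1.07) and HSFA2 (0.764). There only HSFB2B and HSFB2A overlapped, so the 3 master factors stood above the repressors, and the repressors above HSFA2, in both Col-0_CHX libraries. HSFA1E was not listed there. Both HSFA1D values (36 and 206 loci) and the first HSFA2 value (27 loci) were repeated ones. The highest index of the 6 was 1.43 and 4.03 times the lowest in the abh1 libraries and 3.07 and 4.34 times in the Col-0_CHX libraries. Since the formula is not given, an order among genes is a description of the deposited values.

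**Figure D3:**
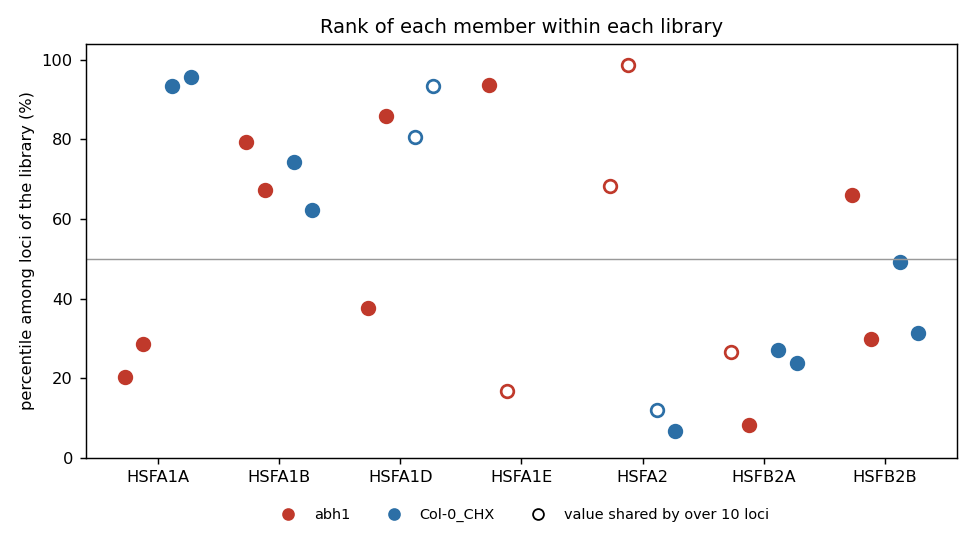
Percentile of each factor's index among all loci listed in the same library, for the abh1 libraries (red) and the Col-0_CHX libraries (blue). Each point is 1 library, and open points are values shared by over 10 loci of it. HSFA1A stands at 20.4 and 28.6 in abh1 and at 93.5 and 95.6 in Col-0_CHX, and HSFA2 at 68.2 and 98.7 in abh1 and at 11.96 and 6.62 in Col-0_CHX.

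The genes with a symbol whose 4 log2 indices lay nearest to those of HSFA1A, by Euclidean distance over the 4 libraries among loci without repeated values, were SIB2, OFP16, IDD7, RR12 and CIPK5. SIB2, which binds a plastid sigma factor, lay at a distance of 0.27, with 0.838 and 0.878 in abh1 libraries, against 2.66 and 2.77 in Col-0_CHX. OFP16, of the OVATE family of repressors, lay at 0.29, with 1.04 and 0.981 in abh1 libraries, against 2.71 and 2.38. The zinc finger factor IDD7 (0.31), the cytokinin response regulator RR12 (0.37) and the calcium-signalling kinase CIPK5 (0.39) followed. All 5 come from the same 4 libraries as HSFA1A and were chosen for this likeness, so their differences are no test.

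Of the other 14 heat shock factors, 8 had an index in all 4 libraries, 3 (HSFA6B, HSFA7B and the seed factor HSFA9) in no library, and HSFA7A, HSFB3 and HSFB4 in 3 libraries each. Of the 8, 7 had a lower mean index in abh1 and 1, HSFB1, a higher one, with differences from -0.68 to 0.091 on the log2 scale and a median of -0.34. Both abh1 values lay below both Col-0_CHX values in 4 of them (45.2% of all loci), and 0 passed limma's test over 17049 loci, with 1, HSFA5, lower at an unadjusted p under 0.05 (17.2% of all loci). HSFA5, which binds HSFA4 factors and curbs them, had 1.23 and 1.49 in abh1 libraries, against 2.405 and 1.87 in Col-0_CHX, a difference of -0.65 ± 0.21 (SE) that did not pass (limma adjusted p = 0.242).

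HSFA6A, a factor of salt and drought responses, had 1.59 and 1 in abh1 libraries, against 3.5 and 1.17 in Col-0_CHX, and its groups overlapped. HSFA8 had 1.04 and 1.31 against 1.61 and 1.38 in Col-0_CHX. HSFA4C had 1.28 and 1.23 in abh1 libraries, against 1.49 and 1.70. The groups of HSFA8 and HSFA4C did not overlap, with differences of -0.36 and -0.35 that did not pass (limma adjusted p = 0.390 and 0.306).

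Cytosolic chaperones, among them the HSP70 and HSP90 kinds that hold HSFA1 factors in check, had differences from -0.39 to 0.29 on the log2 scale. All 10 cytosolic HSP70, HSP90 and HSP101 loci were listed in all 4 libraries, 7 lower and 3 higher in abh1 (72.2% of all loci were lower), with a median log2 difference of -0.13. After centring, which put the median difference of all loci at -0.0088, these were 3 lower and 7 higher. None passed limma's test (0 of 10, and 0% of all loci). At an unadjusted p under 0.05 in limma there were 0 of 10, while 17.2% of all loci were lower and 2.84% higher. HSC70-3 had 1.14 and 1.23 in abh1 libraries, against 1.69 and 1.41 in Col-0_CHX. HSP90.1, the heat-induced HSP90, had 0.935 and 0.872 in abh1 libraries, against 1.04 and 1.25. HSP90.3 had 1.00 and 1.02 in abh1 libraries, against 1.07 and 1.30, and HSP101, which dissolves protein aggregates, had 0.728 and 0.866 against 0.824 and 1.21. Of these 4, HSP101 had groups that overlapped. Over the whole list both abh1 values lay below both Col-0_CHX values in 4 of 10, as at 45.2% of all loci. HSP70 and HSP90 genes have close copies, and their single values are uncertain where reads match several of them.

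Small heat shock proteins are classic targets of the factors. Of 13 loci, 8 were listed in all 4 libraries, 5 lower and 3 higher in abh1 (72.2% of all loci were lower), with a median log2 difference of -0.21. Centred, with the median difference of all loci at -0.0088, they were 3 lower and 5 higher. Of these 8, 1 had no repeated value in any library, and 0 passed limma's test (0% of all loci). In limma 0 had an unadjusted p under 0.05, while 17.2% of all loci were lower and 2.84% higher. HSP17.6A had 0.667 and 0.833 in abh1 libraries, against 1.17 and 3.83 in Col-0_CHX, and HSP17.6B had 0.958 and 0.45 against 1.38 and 0.905. HSP17.6II had 1.03 and 2.4 in abh1 libraries, against 1.03 and 1.06, and HSP15.7 had 1.43 and 0.977 against 1.17 and 2.12. Over the whole list both abh1 values lay below both Col-0_CHX values in 1 of 8, HSP17.6A (45.2% of all loci), and above in 0 (10.7% of all loci).

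Partners of the factors and other heat response genes went both ways. Of 14 loci, 12 were listed in all 4 libraries, 7 lower and 5 higher in abh1 (72.2% of all loci were lower), with a median log2 difference of -0.10. They were 4 lower and 8 higher after centring, and 2 lower and 10 higher with quantile normalization. The median difference of all loci was then -0.0088 and 0.0028, so the 72.2% does not apply to these counts. None of the 12 passed limma's test, and 1 was lower (17.2% of all loci) and 1 higher (2.84% of all loci) at an unadjusted p under 0.05. HSBP, a small protein that binds heat shock factors and dampens them, had 1.09 and 1.16 in abh1 libraries, against 1.64 and 1.5 in Col-0_CHX. Its difference of -0.48 ± 0.14 (SE) did not pass (limma adjusted p = 0.221). The HSBP value was shared by 18 loci in the first abh1 library, and by 24 and 450 loci in the Col-0_CHX libraries.

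ROF1 and ROF2 are related binding proteins of the FKBP family, which meet HSFA2 in a complex with HSP90. Like HSFA2, both had higher values in abh1. They were among the 5 of 12 partners that did. The HSP90 genes were lower, with differences from -0.34 to -0.12, but the median of all loci was -0.23. Only HSP90.1 lay below that median, so the HSP90 genes were not lower as a set than loci in general. Whether these genes change together was not tested. ROF2 had 1.12 and 1.19 in abh1 libraries, against 0.478 and 0.682 in Col-0_CHX, a difference of 1.01 ± 0.23 (SE), higher than at 97.7% of loci, with a limma adjusted p of 0.183. ROF1 had 1.35 and 1.30 in abh1 libraries, against 0.790 and 1.18 in Col-0_CHX, a difference of 0.46 ± 0.25 (SE). The groups of both genes did not overlap, and of the 12 genes they were the 2 with both abh1 values above both Col-0_CHX values (10.7% of all loci), while 2 had both below (45.2% of all loci). ROF1 and ROF2 did not pass, and each had a repeated value in 1 library. The coactivator MBF1C had 1.35 and 1.26 in abh1 libraries, against 1.59 and 1.53, a difference of -0.26 that did not pass.

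**Figure D4:**
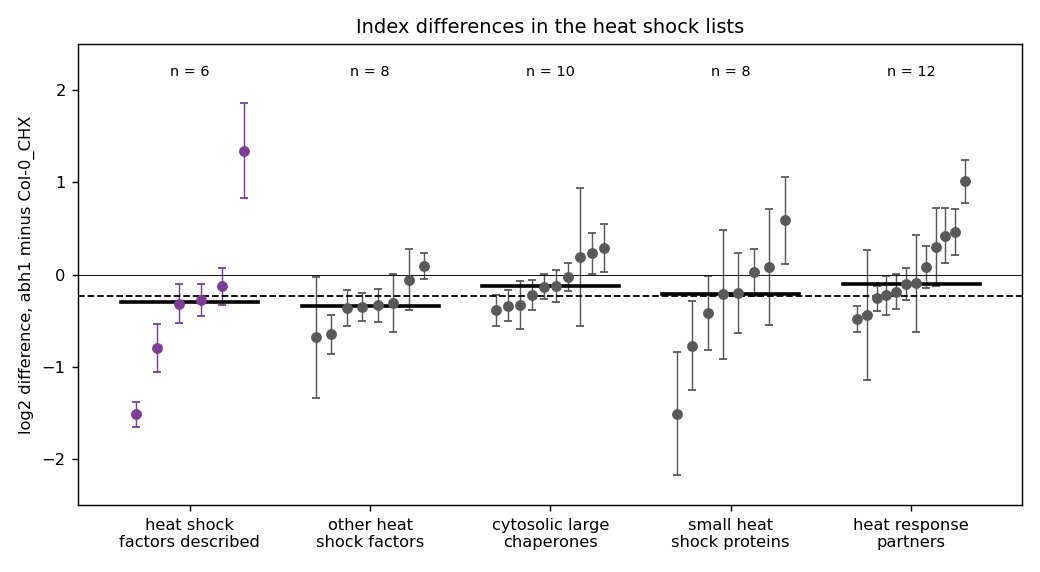
Log2 difference of the index, abh1 minus Col-0_CHX, for each gene listed in all 4 libraries, by list, with standard errors from limma, the median of each list (thick bar) and the median of all 17049 loci (dashed line, -0.23). The 6 heat shock factors described (purple) reach from -1.51 to 1.34 and the 8 others from -0.68 to 0.091, and the median of the 6, -0.29, lies near the dashed line.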

How the data were processed

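Each library came as a deposited list of gene models, each with its decay index, which was taken as a linear ratio from its values, all above 0. Per the submitters' processing notes, cutadapt 1.4.2, STAR 2.4.0 and the TAIR10 genome were used, and per the labels' protocols reads of 50 nt kept their strand. The sources used here do not say how reads were counted for it. Groups and replicate numbers came from the labels. Libraries of a group had identical values at 0.737% (abh1) and 0.736% (Col-0_CHX) of shared loci.

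Without a pseudocount, log2 of the index was taken. The 17049 loci listed in all 4 libraries were fitted by lmFit and eBayes of limma 3.58.1 (R 4.3.3) without a covariate, with a Benjamini-Hochberg adjusted p under 0.05 as the threshold. The fit was also run on simulated normal noise, without repeated values or unlike spread between groups. That run cannot show how the fit behaves on values such as these, and no result here rests on it. A repeated value is one that over 10 loci of a library share. Alternatives left out each library or loci with repeated values (limits of 5, 10 and 20), added a replicate block, centred or quantile-normalized the libraries, used trend or robust variances, loci listed at least once in both groups, or a threshold of 0.1. Leaving out repeated values together with centring was set with these, and other pairs were added after the data were seen. Python 3.11.15 with pandas 2.3.3 and matplotlib 3.10.9 did the rest.

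Symbols came from a RefSeq table of TAIR10.1 that held all 7 factors. It was used for names and neighbours, so no coordinates are printed, and protein and promoter sequences were not used here. The 7 factors, the lists and the tests were chosen with earlier results of these data known. All 7 are described. Of the other factors, up to 4 with the largest difference were to be named, of each further list up to 4 with the smallest p, and the 5 loci nearest to HSFA1A. HSFB1, and factors not listed in all libraries, are named beside their counts.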

Additional observations from a re-analysis of the deposited data

How the results depend on the processing

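The count of loci past limma's adjusted p of 0.05 was 0 over all 17049 loci, and 0 with every library left out in turn, a replicate block, centring, quantile normalization, trend or robust variances, or a threshold of 0.1. Without repeated values it was 567, with a limit of 5 loci 658, and with a limit of 20 loci 0. Among the 6572 loci left by that filter it was 0 without either abh1 library, 1137 and 1957 without the first or second Col-0_CHX library, 216 with a replicate block, and 0 with centring or quantile normalization. The replicate numbers showed no pairing (correlation of deviations -0.0043 over 17049 loci).

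HSFA1A differed by -1.55 to -1.11 over 21 alternatives, with adjusted p from 0.0235 to 0.707. It passed without repeated values (adjusted p = 0.0383), with the limit of 5 (0.026), and, without repeated values, with a replicate block (0.0486) or without the first (0.037) or second (0.0235) Col-0_CHX library. HSFA1D (-1.03 to -0.34), HSFA2 (0.71 to 1.97) and HSFB2A (-0.53 to -0.094) kept their direction over 11 alternatives each and never passed. Without abh1 replicate 2, HSFB2A was at -0.10. Without Col-0_CHX replicate 1, HSFA1B was at -0.14, and without Col-0_CHX replicate 2 at -0.41. HSFA1B turned to 0.096 with quantile normalization, and to 0.078 with quantile normalization over loci without repeated values. HSFB2B was -0.27 to -0.13 where it stayed below 0, and turned to 0.015 without abh1 replicate 2, to 0.0097 without Col-0_CHX replicate 1, to 0.092 with centring and to 0.066 with quantile normalization, and over loci without repeated values to 0.015, 0.0097, 0.080 and 0.069.

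The median log2 difference of the factors, -0.29, was -0.43 to -0.16 with 1 library left out, -0.074 with centring, -0.12 with quantile normalization, and -0.067 without repeated values and centred. The number lower in abh1, 5 of 6, was 4 to 5 with 1 library left out, 3 with quantile normalization, 3 of 3 at each limit for repeated values, and 2 of 3 when centred as well. Over all loci the median difference was -0.0088 with centring and 0.0028 with quantile normalization. Without repeated values fewer genes are tested, and of the 6572 loci left at the limit of 10, not centred, 77.0% were lower in abh1. The other factors lower in abh1 were then 3 of 4 (also with centring and with the limit of 20) and 2 of 3 with the limit of 5. Chaperones were 3 of 10 with centring and 2 of 7 without repeated values and centred. Small heat shock proteins were 3 of 8 with centring, 1 of 1 without repeated values, 0 of 1 when centred as well, and 2 of 2 with the limit of 20. Partners were 4 of 12 with centring, 2 of 12 with quantile normalization, 1 of 3 without repeated values with or without centring, and 2 of 5 with the limit of 20. The cause of these changes was not tested beyond the number of genes. A group of 1 library takes its spread from the other group. The depth behind each index is unknown, which limits every value here.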

Other observations

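In the RefSeq table, HSFA1B overlaps the next gene, SYP21, a syntaxin of vesicle traffic, and HSFB2B overlaps AT4G11670 and a long noncoding RNA. SYP21 had 1.06 and 0.975 in the abh1 libraries, against 1.01 and 0.979 in Col-0_CHX. AT4G11670 had 1.16 and 1.04 in abh1 and 0.714 and 1.5 in Col-0_CHX. The sources used here do not say whether strand was used in counting, so values of overlapping genes are uncertain. The other 5 factors overlapped no gene of that table.

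Among heat response genes with an index in abh1 only were HSP22, a small heat shock protein (2 and 1), and APX2, an ascorbate peroxidase that HSFA2 activates (1.33 and 0.929). These values were shared by 183 and 607 loci for HSP22, and by 101 and 36 loci for APX2. Of all loci listed in both abh1 libraries, 16.2% were listed in neither Col-0_CHX library. HSFA7A, by contrast, had 0.25 in 1 abh1 library and was listed in both Col-0_CHX libraries (1.70 and 0.847).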
